A study of Mus musculus with 8 samples.

Results

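The cells described here are tumour-infiltrating OT-I T cells with the highest shares of transcripts from Bnip3, Aldoc, Egln3, Ankrd37 and Slc2a1, 5 genes that are transcribed when oxygen is low. They were chosen by adding up each cell's unique molecular identifiers (UMIs, a count of captured RNA molecules) of these 5 genes, dividing by all gene UMIs of the cell and taking the top 10% of cells within each library. Only barcodes with 1 called guide RNA and with at most 10% of UMIs from mitochondrially encoded genes entered. This gave 2334 high cells of 23337, namely 255 of 2552, 262 of 2616 and 653 of 6530 for the 3 anti-PD-1 libraries and 1164 of 11639 for the IgG library. Wherever 4 values follow each other, they stand for the anti-PD-1 libraries in the order of their numbers and then for IgG. The remaining cells of the same libraries are called the other cells. Oxygen itself was not measured, so the name hypoxic rests on transcripts, and a class taken from a per-cell score is a range and not a cell type.

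OT-I cells are CD8+ T cells that carry a transgenic receptor for an ovalbumin peptide. Here they came from OT-I:Rosa26-Cas9 mice, bred from Rag2/OT-I and Rosa26-Cas9 parents, so that Cas9 was expressed constitutively. The cells were transduced with a lentiviral CROP-seq library of guides against metabolic genes that also encodes CD90.1, and were transferred into Rosa26-Cas9 mice of 6 to 12 weeks with an orthotopic KPC_OVA tumour, a pancreatic cancer cell line that makes ovalbumin. Mice received anti-PD-1, an antibody that blocks the PD-1 receptor, or control IgG, and CD90.1+ OT-I cells were sorted from the primary tumour 7 days after transfer. All 4 libraries therefore share Cas9, the guide library and the tumour line. There were 3 anti-PD-1 libraries and 1 IgG library, and the tumours pooled in each are not given in the labels. Replicates 1 and 2 of anti-PD-1 share a sample name with numbered endings, so whether they are separate samples is not stated. The study reports independent CROP-seq experiments and a correction for batch, and the labels do not say which library belongs to which.

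When oxygen is present, prolyl hydroxylases of the EGLN family modify the alpha subunits of hypoxia-inducible factor (HIF), and the VHL protein then marks them for degradation. In low oxygen the subunits escape, pair with ARNT and bind short DNA motifs near genes for glucose uptake, glycolysis, mitochondrial turnover and blood vessel growth. Antigen receptor and cytokine signals can also raise HIF-1alpha in T cells, so its target genes are not read as oxygen alone.

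The 4 libraries held 9579, 9865, 13646 and 23269 barcodes and between 142945121 and 155974184 gene UMIs. The median cell with 1 guide had 16744, 16224, 11968 and 6298 UMIs. High cells were close to the other cells in depth, with median UMIs of 1.03, 1.04, 0.951 and 0.921 times theirs. No barcode of a high cell occurred as a high cell in another library, and 3 to 20 barcodes with 1 guide were shared by any pair of libraries. No doublet caller was run. High cells with at least 10 UMIs from marker genes of other cell types, the class II gene H2-Ab1 among them, numbered 6, 4, 12 and 6.

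The values that chose the cells are given as a description, with no test. The lowest share among high cells was 376, 372, 695 and 631 counts per 1000000 UMIs (CPM), and the highest share outside them lay within 1 CPM of it in each library. Within 10% of that limit lay 37, 41, 104 and 185 high cells and 40, 42, 126 and 222 other cells, so there was no gap at the limit. A median high cell held 11, 9, 12 and 5 UMIs of the 5 genes, against 1 in the median other cell of each library. Bnip3, a mitochondrial outer membrane receptor for mitophagy, supplied 50.2% of these UMIs and was seen in 2140 of the 2334 cells. Slc2a1, the glucose transporter GLUT1, was seen in 1679 of them, and Ankrd37, an ankyrin repeat protein, in 1533. Aldoc, the aldolase C isoform of glycolysis, was seen in 1123, and Egln3, an oxygen-sensing prolyl hydroxylase, in 908. All 5 genes were seen together in 256 high cells, and 123 had only 1 of them. Since most cells had few of these UMIs, the choice depended on depth of sampling: with each cell thinned to 2000 UMIs, between 45.9% and 58.0% of the high cells of a library were chosen again.

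Each of the 5 genes was then measured in cells chosen by the other 4, which the choice did not use. All 5 were higher in those cells in 4 of 4 libraries. Bnip3 was at 222, 203, 384 and 252 CPM in high cells, against 38.3, 37.4, 89.8 and 73.7 in the other cells. Its log2 fold change was 2.24 (SE 0.09, edgeR quasi-likelihood test, adjusted p = 1.09e-10), where 16.6% of all genes tested were called higher. Aldoc stood at 40.5, 36.5, 73.0 and 63.4 CPM against 10.6, 9.07, 26.4 and 22.6, a log2 fold change of 1.72 (SE 0.08, adjusted p = 1.52e-09, 18.4% of genes called higher). The lowest high-cell value of either gene lay above its highest other-cell value. Egln3 reached 43.2 ± 13.5 CPM (SD, n = 4) against 10.6 ± 4.16, a log2 fold change of 2.10 (SE 0.07, adjusted p = 3.03e-11, 18.9% called higher). For Ankrd37 the levels were 99.9 ± 34.5 and 29.0 ± 9.94 CPM and the log2 fold change was 1.84 (SE 0.07, adjusted p = 5e-11, 19.3% called higher). Slc2a1 had 112 ± 15.0 against 34.6 ± 5.56 CPM, with a log2 fold change of 1.75 (SE 0.05, adjusted p = 9.84e-13, 19.6% called higher). The 5 genes thus rose together in cells, and in the 2 libraries with the higher levels, anti-PD-1 replicate 3 and IgG, both kinds of cell were higher for Bnip3, Aldoc, Egln3 and Ankrd37. P-values here measure the spread between libraries, of which replicates 1 and 2 may be technical.

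**Figure D1:**
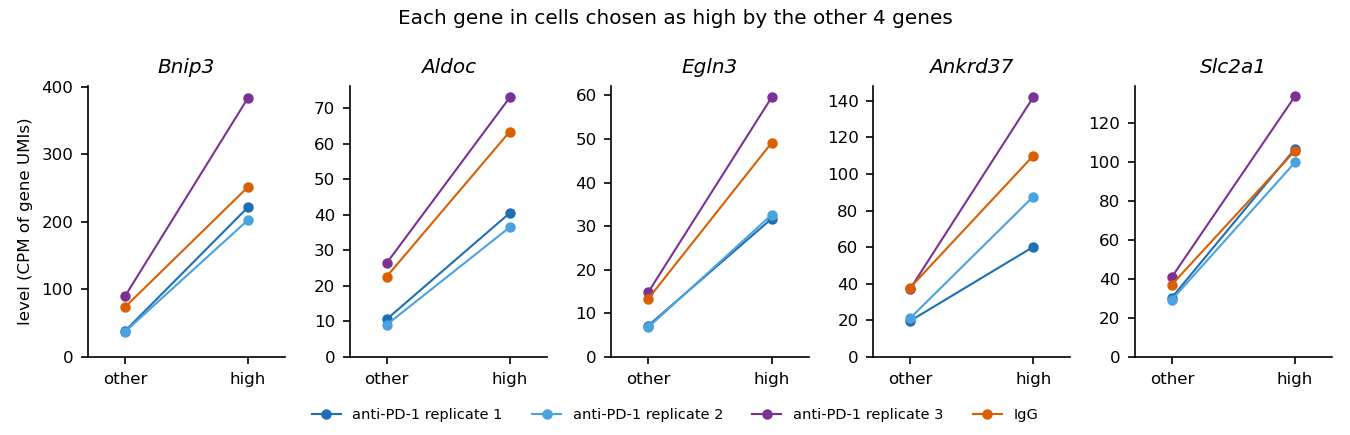
Level of each of the 5 genes (y axis, CPM of gene UMIs) in other cells and in high cells chosen by the other 4 genes (x axis), with 1 line per library. Every line rises, from 37.4 to 203 CPM for Bnip3 in anti-PD-1 replicate 2 and from 89.8 to 384 CPM in replicate 3.

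HIF binds DNA at a core of ACGTG or GCGTG, so the promoters of a pair of the 5 genes and of P4ha2, the HIF target with the largest fold change in the next comparison, are shown. Each is the stretch from 250 to 21 bases before the RefSeq start in mouse build GRCm38.p6, printed along the strand of the gene, with every ACGTG and GCGTG on either strand in capitals (CACGT and CACGC are the same cores on the opposite strand). Neighbouring and overlapping matches run together.
Bnip3, chr7:138909527-138909756, minus strand: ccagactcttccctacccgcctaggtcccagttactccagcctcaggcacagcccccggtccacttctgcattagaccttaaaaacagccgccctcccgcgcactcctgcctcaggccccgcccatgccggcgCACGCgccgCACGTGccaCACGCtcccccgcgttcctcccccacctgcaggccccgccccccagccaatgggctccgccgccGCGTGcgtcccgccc
Ankrd37, chr8:45999871-46000100, minus strand: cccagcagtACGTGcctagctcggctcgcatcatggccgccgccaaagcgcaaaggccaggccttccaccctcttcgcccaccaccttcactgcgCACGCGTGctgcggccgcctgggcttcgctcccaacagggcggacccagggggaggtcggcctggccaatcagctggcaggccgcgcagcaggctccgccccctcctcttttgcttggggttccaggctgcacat
P4ha2, chr11:54100674-54100903, plus strand: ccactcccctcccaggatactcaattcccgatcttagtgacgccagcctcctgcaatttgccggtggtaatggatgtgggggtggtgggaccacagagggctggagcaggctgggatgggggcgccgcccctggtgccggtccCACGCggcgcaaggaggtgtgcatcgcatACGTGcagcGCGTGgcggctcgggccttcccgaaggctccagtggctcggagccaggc
The matches covered 5 positions for Bnip3, 3 for Ankrd37 and 3 for P4ha2. None of the stretches overlapped an exon. The Ankrd37 stretch lay in introns of annotated transcripts of Ankrd37 and Lrp2bp, that of P4ha2 inside the P4ha2 gene body, and that of Bnip3 in no gene. In the whole window from 250 bases before to 50 after the start, 6 of 6 windows of the 5 genes held a core, against 43.8% of all 32851 RefSeq windows and 62.3% of windows of the genes tested. The share was 72.5% (29 of 40 windows) for the HIF target list, 65.0% for all genes called higher, 58.6% for those higher by over 1 on the log2 scale and 64.4% for genes called lower. A core was thus about as frequent near genes that were lower as near genes that were higher. A match of letters is a description of the window and not a bound site.

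The main comparison set the summed counts of high cells against those of other cells within each library, with the 5 genes left out. Of 11984 genes tested, 2317 (19.3%) were higher and 2147 (17.9%) were lower at an adjusted p under 0.05, and the median log2 fold change of all genes was 0.01. By over 1 on the log2 scale, 327 were higher and 80 lower. Of the called genes, 1960 were higher and 2074 lower in 4 of 4 libraries. With so many genes called, a list is read below against these shares. With library totals in place of TMM scaling the split turned to 1732 higher and 2809 lower (38.1% of calls higher, against 51.9%), so shifts of a few hundredths depend on the scaling. Without the library block, which drops the pairing within a library, 1371 of 11984 genes were called (765 higher, 606 lower). With nontargeting guides only, which leaves fewer cells, 1108 of 9295 were called (650 higher, 458 lower). Metallothioneins and glycolytic enzymes held their counts within 1.5 times in both, as did HIF targets and the glucose and lactate transporters. Most of the other lists lost more. List counts in these settings are read against these smaller totals.

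**Figure D2:**
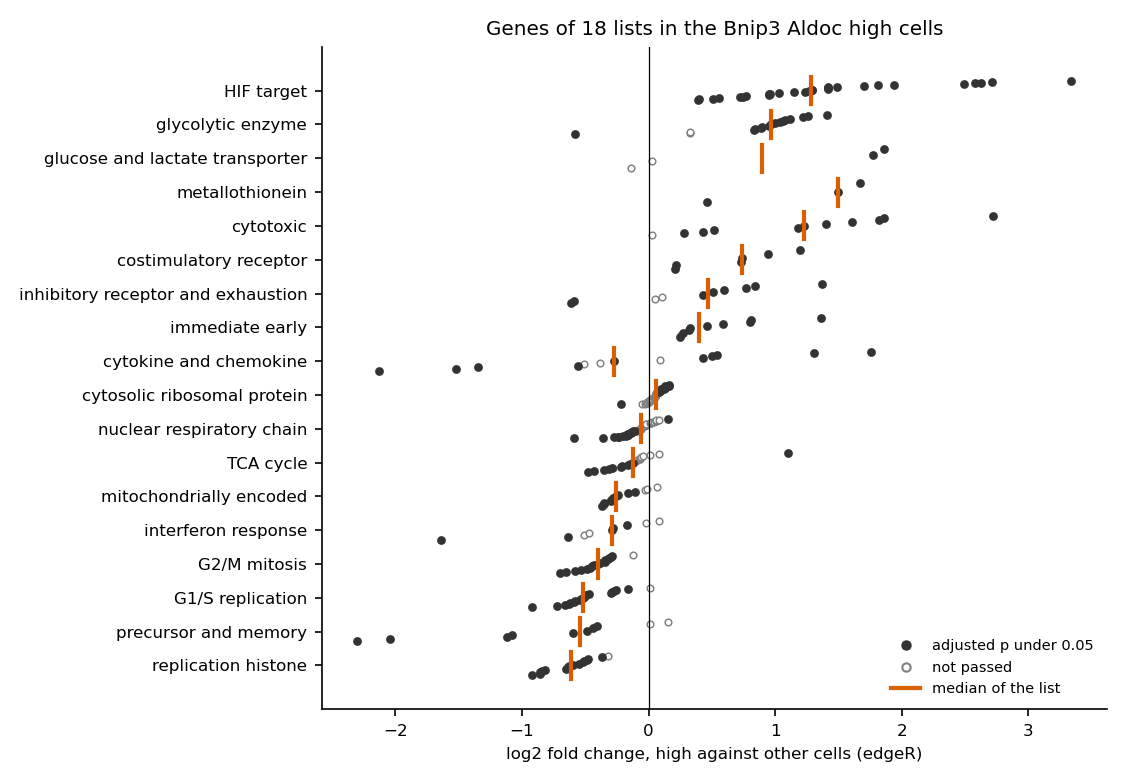
Log2 fold change of high against other cells (x axis, edgeR) for the genes of 18 lists (y axis), each point a gene, filled where its adjusted p is under 0.05, with the list median as an orange bar. HIF targets, with a median of 1.28, lie wholly to the right, and replication histones, with a median of -0.62, wholly to the left.

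HIF targets other than the 5 genes were higher throughout: of 33 listed, 28 passed the filter on low counts and all 28 were higher, with a median log2 fold change of 1.28. Their summed level was 5266 ± 139 CPM (SD, n = 4) in high cells and 2712 ± 52.3 in other cells. The largest fold change was that of P4ha2, a collagen prolyl hydroxylase subunit, at 3.34 on the log2 scale (SE 0.27, adjusted p = 5.7e-08). P4ha2 was a low-level gene, at 3.2, 4.38, 7.25 and 7.01 CPM in high cells against 0.114, 0.253, 0.732 and 1.22 in other cells. In anti-PD-1 replicate 2, 1 high cell held 16 of its 21 UMIs, and in replicate 1, 1 cell held 7 of 16. Vegfa, the angiogenic growth factor, rose by 2.63 on the log2 scale, Ak4, a mitochondrial adenylate kinase, by 2.58, and Ndrg1, a stress-responsive gene, by 2.49. Car9, the cell-surface carbonic anhydrase IX, changed by 2.71 but was seen at 1.16 CPM and was higher in 3 of 4 libraries. Hilpda, an inhibitor of lipolysis on lipid droplets, stood at 243, 246, 358 and 277 CPM in high cells and at 95.9, 96.9, 75.1 and 70.3 in other cells, with no overlap, a log2 fold change of 1.81. Ero1l, an ER oxidase, was at 1.94. Among the smaller changes were Higd1a, a respiratory chain factor, at 1.29 and Pdk1, an inhibitory kinase of pyruvate dehydrogenase, at 1.24. The cytokine Mif was at 0.77. Under each alternative way of choosing cells, filtering or testing, between 22 and 31 of the listed genes were higher and 0 lower.

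Genes of the oxygen-sensing pathway itself moved less. Of 11 listed, 10 were tested, 5 were higher and 0 lower, with a median of 0.15. The count higher was 3 without the block, with nontargeting guides only and without anti-PD-1 replicate 3. Epas1, which encodes HIF-2alpha, was higher by 1.03 on the log2 scale at 7.23 ± 2.33 CPM (SD, n = 4), and Vhl by 0.64. Hif1a was at 389, 349, 362 and 337 CPM in high cells and at 285, 260, 251 and 257 in other cells; this was a log2 fold change of 0.51 with no overlap between the kinds of cell. The oxygen sensor Egln1, itself a HIF target, was higher by 1.42.

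Glycolysis rose almost as a whole. Of 17 enzymes, 14 were higher and 1 lower, with a median of 0.97, and their summed level was 16466 ± 1486 CPM (SD, n = 4) against 8645 ± 1029. Hk2, which traps glucose in the cell, rose by 1.41 on the log2 scale, the triose phosphate isomerase Tpi1 by 1.26, Aldoa by 1.12, Gapdh by 0.90 and the lactate dehydrogenase Ldha by 0.83. Pgk1, phosphoglycerate kinase, stood at 1403, 1350, 1689 and 1510 CPM in high cells. In the other cells it stood at 564, 579, 782 and 752, so the lowest high-cell value was well above the highest other-cell value. Eno3, the muscle enolase, was the enzyme that fell, by 0.58 on the log2 scale. Of 6 glucose and lactate transporters besides Slc2a1, 4 were tested and 2 rose: the glucose transporter Slc2a3 by 1.86 and the lactate exporter Slc16a3 by 1.77. Gapdh and several other glycolytic genes have processed pseudogenes, so their reads can be split in counting.

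Genes of mitochondrial respiration were level or slightly lower. Of 48 nuclear genes of the respiratory chain, 18 were lower and 1 was higher, a median of -0.06. The largest fall was that of Ndufa4, a cytochrome oxidase subunit, which stood at 473, 498, 275 and 321 CPM in high cells against 662, 702, 510 and 534 in other cells. Its log2 fold change was -0.59, and it was lower in 4 of 4 libraries. Of 13 mitochondrially encoded genes 10 were lower and 0 higher, with a median of -0.26. The cytochrome b gene mt-Cytb fell by 0.37, at 2275, 1691, 1146 and 1681 CPM against 2754, 2297, 1717 and 2221, whereas mt-Co1, at a log2 fold change of 0.07, did not pass. The median share of mitochondrially encoded UMIs was 2.97%, 1.98%, 1.18% and 1.69% in high cells and 3.2%, 2.23%, 1.42% and 1.94% in other cells. In the TCA cycle, 10 of 22 genes were lower, among them the fumarate hydratase Fh1 by -0.43 on the log2 scale. The 1 that was higher was Pcx, pyruvate carboxylase, at 1.1 and a level of 1.31 CPM. Of 11 autophagy and mitophagy genes 6 were higher and 0 lower. The largest change was that of the autophagy factor Wipi1, at 2.38 but a low level of 2.64 against 0.498 CPM. The mitophagy receptor Bnip3l, which is also on the HIF list, was at 1.27 and the cargo receptor Sqstm1 at 0.51. Of the respiratory chain list 29 were lower under library totals, 11 after thinning, 4 with nontargeting guides only and 2 without the block, and the latter left 0 of the 13 mitochondrially encoded genes. The TCA cycle count became 5 after thinning, 2 with nontargeting guides only, 1 without the block and 6 in anti-PD-1 replicates 1 and 2 alone. The autophagy count was 2 with nontargeting guides only and 3 without the block or in those replicates. The cholesterol synthesis list held 20 genes, of which Fdft1 (0.28) was higher and Idi1 (-0.18) lower. Its counts moved with the setting, with 5 lower under library totals or without the filter on low counts, 4 lower in the top 5% or with UMIs limited to 3 median absolute deviations, and 5 higher in the top 20%.

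**Figure D3:**
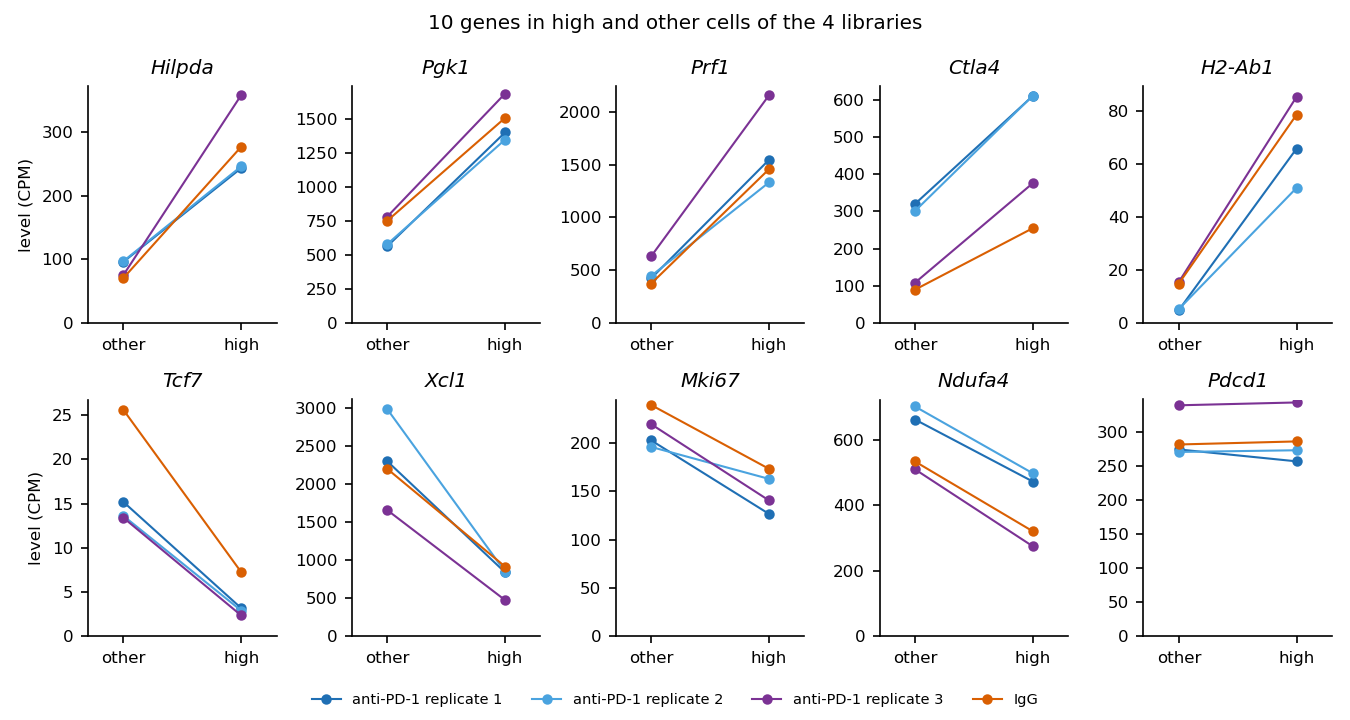
Level (y axis, CPM) of 10 genes in other and high cells (x axis), with 1 line per library. Hilpda, Pgk1, Prf1, Ctla4 and H2-Ab1 rise and Tcf7, Xcl1, Mki67 and Ndufa4 fall in all 4 libraries, while Pdcd1 stays between 257 and 344 CPM.

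High cells carried more transcripts of the killing machinery. Of 11 cytotoxic genes 10 were higher and 0 lower, with a median of 1.23. That median was 0.59 without anti-PD-1 replicate 3 (8 higher), 0.6 in DESeq2 (8 higher), 0.77 after thinning, 0.67 in replicates 1 and 2 alone and 0.19 with nontargeting guides only. Their summed level rose by between 0.81 and 0.92 on the log2 scale in each library. Prf1, the pore-forming perforin, stood at 1545, 1331, 2156 and 1456 CPM in high cells and at 421, 445, 630 and 372 in other cells. Gzmb, granzyme B, stood at 3033, 3005, 4036 and 2518 against 1325, 1481, 1822 and 1021. Neither gene overlapped between the kinds of cell, and their log2 fold changes were 1.86 and 1.23. Gzma rose by 0.52. Gzmc and Gzmd were called at 1.61 and 1.82, but few cells held their UMIs. With nontargeting guides only the log2 change of Gzmd was -0.70. In anti-PD-1 replicate 1, 1 high cell held 429 of 450 Gzmc and 154 of 158 Gzmd UMIs. Gzmc was seen in 3.92%, 6.49%, 15.8% and 11.1% of high cells against 5.62%, 5.78%, 11.8% and 8.31% of other cells, so the share was lower in that library and higher in the other 3. In replicate 2, 1 cell held 217 of 382 Gzmc UMIs and 230 of 308 Gzmd UMIs were in 1 cell, and in replicate 3, 1 cell held 1215 of 2542 Gzmd UMIs. Gzmg was called at 2.72, but it was at 0, 16.1, 329 and 4.10 CPM in high cells against 1.03, 8.47, 8.27 and 10.3 in other cells. It was higher in 2 of 4 libraries, 1620 of 2771 UMIs in high cells of replicate 3 lay in 1 cell, and without that library its log2 change was -0.17. Gzmc, Gzmd and Gzmg are close relatives in sequence, so reads could be shared among them, and with cells of nontargeting guides only, as without the block, 3 of the 11 cytotoxic genes were called higher.

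The receptors of activated and exhausted T cells were mostly higher. Of 10 inhibitory receptor and exhaustion genes 6 were higher and 2 lower, with a median of 0.47 (0.27 after thinning). Ctla4, an inhibitory receptor, stood at 610, 611, 376 and 255 CPM in high cells against 320, 301, 108 and 89.3 in other cells, a log2 fold change of 1.37. It was higher in 4 of 4 libraries, although the kinds of cell overlapped across libraries. Entpd1, the ectonucleotidase CD39, rose by 0.84, Havcr2, which encodes TIM-3, by 0.77 and Lag3 by 0.60. The transcription factor Tox and the receptor Cd160 fell by 0.59 and 0.61. Pdcd1, which encodes PD-1, was at 257, 274, 344 and 287 CPM against 275, 271, 340 and 282, a log2 fold change of 0.05 (adjusted p = 0.34). All 6 costimulatory receptors were higher, with a median of 0.73, led by Tnfrsf4, or OX40, at 1.20 and Tnfrsf9, or 4-1BB, at 0.94. Without the block 3 of the inhibitory and 3 of the costimulatory genes were called higher.

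Precursor and memory genes went the other way. Of 10 such genes 8 were lower and 0 higher, with a median of -0.55. Tcf7, the transcription factor TCF-1 of stem-like T cells, was at 3.2, 2.92, 2.38 and 7.27 CPM in high cells and at 15.2, 13.6, 13.4 and 25.6 in other cells. The kinds of cell did not overlap, and the log2 fold change was -2.04. Id3, an inhibitor of E proteins, fell by 2.30 on the log2 scale at a low level of 0.959 against 4.90 CPM. S1pr1, the receptor for tissue exit, fell by 1.12. With cells of nontargeting guides only, as without the block, 2 of the 10 genes were called lower. Of all genes, 458 of 9295 and 606 of 11984 were called lower in these settings.

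Cytokines and chemokines split. Of 13, 5 were higher and 5 lower, with a median of -0.27. Without the block 1 was higher and 1 lower, with nontargeting guides only 4 and 2, and in barcodes with no called guide 6 and 2. The median was -0.16 without anti-PD-1 replicate 3, -0.09 without IgG and -0.01 with nontargeting guides only, and it turned to 0.29 in the top 20% and to 0.21 in barcodes with no called guide. Spp1, osteopontin, rose by 1.76, Il10, an anti-inflammatory cytokine, by 1.31 and the chemokine Ccl5 by 0.54. Xcl1, a chemokine that attracts cross-presenting dendritic cells, was at 843, 851, 477 and 918 CPM in high cells against 2302, 2987, 1660 and 2202 in other cells, with no overlap and a log2 fold change of -1.52. Csf2, which encodes GM-CSF, fell by 2.13 at levels under 4 CPM, Tnfsf8, or CD30 ligand, by 1.35 and the chemokine Ccl1 by 0.56. Ifng, at a log2 fold change of 0.09, did not pass. Of 11 interferon response genes 9 were tested, and 5 were lower and 0 higher. Among the lower was the antiviral gene Ifit3 at -1.64, at a low level of 0.557 against 1.95 CPM. The interferon median was 0.01 with nontargeting guides only, and its count was 0 without the block or with nontargeting guides only, 2 after thinning, and 3 without IgG or in replicates 1 and 2 alone. In the residency and migration list 9 of 10 were tested, with 5 higher and 2 lower: Cxcr6, a receptor of tissue-resident T cells, rose by 0.60 and Cxcr3, a receptor for interferon-induced chemokines, fell by 0.98. The count higher there was 2 with nontargeting guides only, and 3 without the block, without IgG, after thinning, in the top 20%, in barcodes with no called guide and in replicates 1 and 2 alone.

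Genes of the cell cycle were lower nearly throughout. Of 20 genes of the G1/S transition and DNA replication 19 were lower, with a median of -0.51 and the largest fall for Ung, a uracil glycosylase of DNA repair, at -0.92. Of 17 genes of G2/M 16 were lower, with a median of -0.40, and of 16 replication histones tested of 17 listed, 15 were lower with a median of -0.62. None of the 3 lists had a gene called higher. Mki67, which encodes the proliferation antigen Ki-67, stood at 127, 163, 140 and 173 CPM in high cells and at 202, 196, 219 and 239 in other cells, a log2 fold change of -0.45. Its highest high-cell value was below its lowest other-cell value. Cdc20, an activator of the anaphase complex, fell by 0.70 and the linker histone Hist1h1b by 0.86. Histone genes are near-identical copies and their mRNAs mostly lack a poly(A) tail, so their counts are uncertain. Choosing cells after thinning to 2000 UMIs left 7 of the 17 G2/M genes called lower, and without the library block 2 of 16 histones, 6 of 17 G2/M and 8 of 20 G1/S genes were called. With nontargeting guides only 10 G1/S and 9 G2/M genes were called lower. After thinning the medians of the 3 lists were -0.28, -0.13 and -0.38. Cell cycle phases were not called.

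Outside the lists, among genes at 50 CPM or more that moved one way in 4 of 4 libraries, the 10 largest falls were those of Gnl3 (-0.96), Srm (-0.94), Dkc1 (-0.91), Sp110 (-0.85), Bzw2 (-0.85), Apex1 (-0.84), Nop16 (-0.81), Evl (-0.79), Nolc1 (-0.79) and Nop56 (-0.74) on the log2 scale. Gnl3, Dkc1, Nop16, Nolc1 and Nop56 encode nucleolar proteins of ribosome assembly, and Srm is spermidine synthase. The 58 cytosolic ribosomal proteins were near level, with 19 higher, 1 lower and a median of 0.06. Their count depended on the setting, with 38 called higher without anti-PD-1 replicate 2, 8 without replicate 3, 11 without IgG, 0 without the block, and 14 higher and 12 lower under library totals, and ribosomal protein genes have many pseudogenes.

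The 10 largest rises by the same rule were Cdkn1a (2.11), Sap30 (1.52), Kdm5b (1.49), Gem (1.41), Pgm1 (1.34), Impa2 (1.32), Fndc3a (1.28), Sdcbp2 (1.25), AA467197 (1.24) and Grhpr (1.22). Cdkn1a, the cyclin-dependent kinase inhibitor p21, was at 59.95, 82.7, 61.2 and 56.2 CPM in high cells. In the other cells it was at 14.5, 16.8, 16.6 and 14.0, so the kinds of cell did not overlap. Pgm1 is a phosphoglucomutase of glycogen metabolism, Kdm5b a histone H3K4 demethylase, Sap30 a subunit of a histone deacetylase complex and Gem a small GTPase.

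Stress genes were raised in part. All 3 metallothioneins, metal-binding proteins, were higher, with a median of 1.5 (0.96 after thinning). Mt1 stood at 681, 638, 780 and 615 CPM in high cells against 210, 238, 258 and 188 in other cells, with no overlap and a log2 fold change of 1.67, and Mt2 and Mt3 changed by 1.5 and 0.46. Of 7 heat shock genes 3 were higher and 2 lower. The inducible Hsp70 genes Hspa1a and Hspa1b, near-identical copies whose reads cannot be fully told apart, were both at 2.32. Hspa1a was seen in 4 of 255, 10 of 262, 49 of 653 and 41 of 1164 high cells, and 23 of its 43 UMIs in anti-PD-1 replicate 1 and 29 of 80 in replicate 2 lay in 1 cell each. The mitochondrial chaperonin Hspd1 was at -0.49. Of 10 immediate early genes 9 were higher and 0 lower, with a median of 0.40 and Egr1 at 0.81. Atf3, at 1.36 (SE 0.29), rose in 3 of 4 libraries, from a mean of 3.26 ± 1.89 to 7.18 ± 3.24 CPM (SD, n = 4). Of 21 genes of the amino acid stress response under ATF4, 19 were tested, 9 were higher and 3 lower. Eif4ebp1, a repressor of translation, was at 1.51 and Ddit3, or CHOP, at 0.81, whereas Phgdh, the entry enzyme of serine synthesis, was at -0.53. In ER protein folding 7 of 16 genes were higher and 0 lower, with the chaperone Hspa5 at 0.32. Of 8 cell death genes 5 were higher and 1 lower: the pro-apoptotic Bbc3 was at 0.63, higher in 3 of 4 libraries, and Bcl2l11, which encodes BIM, at -0.31. In the antigen receptor response list 6 of 10 genes were higher and 2 lower, with the orphan nuclear receptor Nr4a2 at 0.38, Myc at -0.65 and Egr2 at -0.56. With nontargeting guides only the counts higher were 0 for antigen receptor response, 4 for immediate early, 5 for ATF4, 4 for ER folding and 3 for cell death genes, and without the block 0, 1, 4, 2 and 1.

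Several of these differences were graded over the score. Cells of each library were split by the summed share of the 5 genes into the top 5%, the next 5 to 10%, 10 to 20%, 20 to 50% and the lower 50%. This is a description over the quantity that chose the cells, with no test. Summed glycolytic enzymes averaged 18199, 14904, 12839, 9651 and 7113 CPM over the 4 libraries from the top bin down. HIF targets averaged 5893, 4701, 3964, 2979 and 2276 CPM, and cytotoxic genes 10358, 8478, 6884, 5400 and 4511. HIF targets, cytotoxic genes, glycolytic enzymes, costimulatory receptors and metallothioneins fell at every step in 4 of 4 libraries. Replication histones rose in the same order, at 917, 1222, 1425, 1648 and 2054 CPM, at every step in 3 of 4 libraries. Other lists were less regular: precursor and memory genes (154, 148, 170, 199 and 234 CPM), G2/M genes and interferon response genes rose at every step in 2 of 4 libraries, and cytokine, ER folding and antigen receptor genes moved one way at every step in 0 of 4. In the lower 50% many cells had no UMI of the 5 genes: over all cells these were 34.2%, 34.7%, 26.7% and 42.9%.

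**Figure D4:**
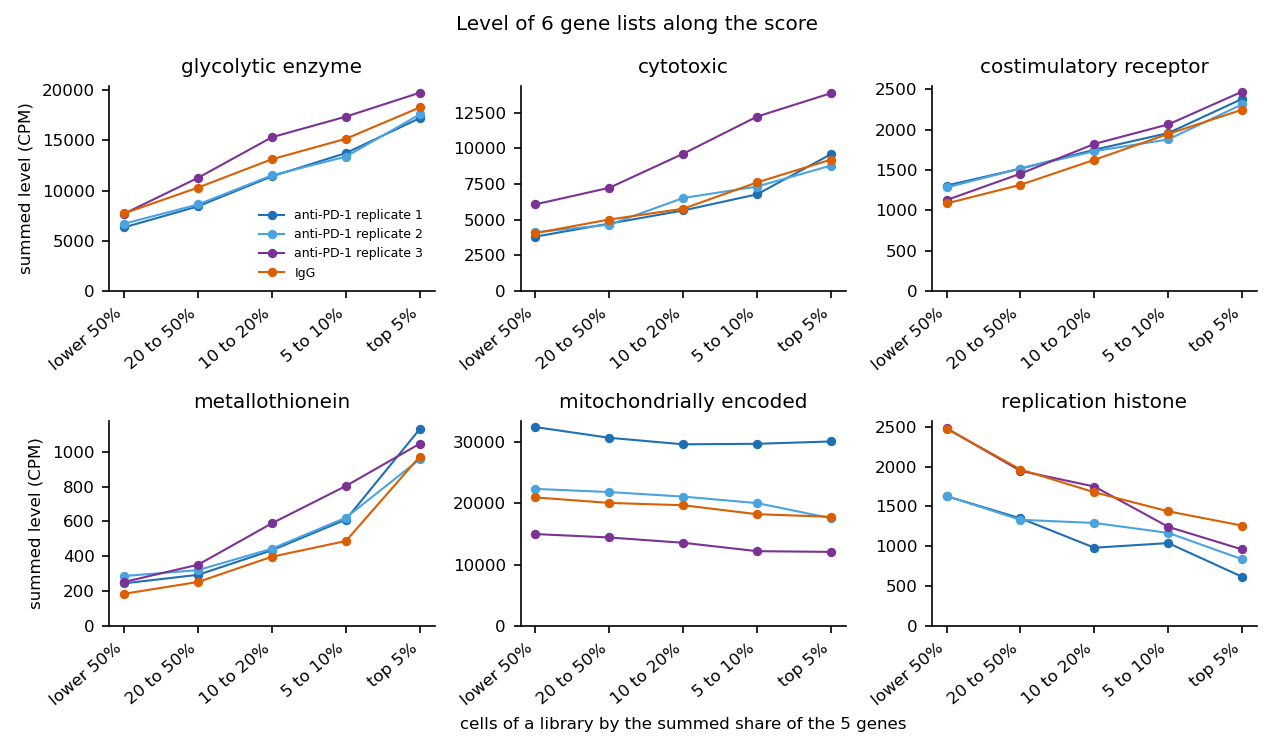
Summed level (y axis, CPM) of 6 gene lists in cells binned by their summed share of the 5 genes (x axis, from the lower 50% to the top 5%), with 1 line per library. Glycolytic enzymes climb from a mean of 7113 to 18199 CPM and replication histones descend from 2054 to 917.

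The cells were T cells by their markers in both kinds. The 8 T cell identity genes summed to 7140 ± 219 CPM (SD, n = 4) in high cells and to 6774 ± 260 in other cells, with 6 of 8 higher, 0 lower and a median of 0.16. The count higher was 0 without the block and 3 with nontargeting guides only or in anti-PD-1 replicates 1 and 2 alone. Markers of neutrophils and of erythrocytes were at or near 0, and 0 of them passed the filter on low counts. No fibroblast marker passed it either, but in high cells of anti-PD-1 replicate 2 their sum was 85.2 CPM against 0.368 in other cells, with 94 of 95 Col1a1 and 168 of 168 Col3a1 UMIs each in 1 cell. In high cells of the other libraries the fibroblast sum was at most 0.356 CPM. Tumour epithelium had 2 of 4 tested genes higher, Krt8 at 2.54 and Krt19 at 2.72, and these rested on the IgG library, where 1 high cell held 490 of 494 Krt8 UMIs. Without that library Krt8 was at -0.90 and Krt19 at -1.22. The summed level of all other-type markers was 113, 175, 146 and 359 CPM in high cells and 48.1, 62.5, 220 and 77.5 in other cells. The class II gene H2-Ab1, described below, alone held 329 of 565, 244 of 838, 718 of 1231 and 594 of 2712 of these UMIs in high cells. Fibroblast markers held 408 of those in replicate 2, and tumour epithelium markers 1801 of those in IgG. Macrophage markers had 2 of 5 tested genes higher and a sum of 16.3 ± 6.44 CPM against 10.9 ± 2.29. The count higher was 0 in DESeq2 and without anti-PD-1 replicate 3, and without replicate 1 it was 1, with 1 lower. For B or plasma cells 1 of 2 was lower, Igkc at -4.08, of which 10952 of 11261 UMIs in the other cells of replicate 3 lay in 1 cell. Endothelial (7.08 against 7.67 CPM) and acinar (4.16 against 3.07 CPM) markers had 1 gene tested each, and neither passed. With all cells of 10 or more such UMIs left out, 4462 genes were called, and 4273 of the 4464 calls of the main comparison were made again in the same direction.

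The dendritic cell list had 1 of 3 tested genes higher, H2-Ab1, the beta chain of the class II molecule I-A. H2-Ab1 was at 65.7, 50.9, 85.3 and 78.6 CPM in high cells against 4.8, 5.2, 15.4 and 14.9 in other cells, with no overlap and a log2 fold change of 2.91 (SE 0.14, adjusted p = 1.02e-10). No high cell held more than 14 of its UMIs in any library. Cd74, the invariant chain that class II molecules need, was at 5.02 ± 3.71 CPM (SD, n = 4) in high cells against 8.49 ± 4.31 and did not pass, at a log2 fold change of -0.74. The class II partner genes H2-Aa (-0.19) and H2-Eb1 (-0.70) and the class II transactivator Ciita (-0.36), looked up after H2-Ab1 was seen, did not pass either. The part of other cell types in the H2-Ab1 level was not tested further.

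Whether anti-PD-1 changed the state was asked in a pair of ways. Over all cells with 1 guide, the 5 genes summed to 141, 138 and 263 CPM in the anti-PD-1 libraries and to 220 in IgG. The mean difference was -39.1 CPM. It is given as a description, since an exact permutation test of 3 libraries against 1 cannot go below p = 0.25. The IgG value lay between replicates 1 and 2 and replicate 3, and anti-PD-1 replicate 3 alone was higher than IgG. Among barcodes with no called guide the values were 147, 151, 293 and 257 CPM, in the same order. Depth also differed, with median cells of 16744 and 16224 UMIs in replicates 1 and 2, 11968 in replicate 3 and 6298 in IgG. The labels do not assign libraries to the study's experiments, so treatment and experiment cannot be told apart here. The contrast of high with other cells differed between treatments for 22 of 11984 genes (0.184%), 2 of them larger under anti-PD-1 and 20 smaller. That fit takes the lone IgG library to vary like the anti-PD-1 ones, so a difference of that library cannot be told apart from one of treatment. Krt8, Krt18, Krt19 and Epcam are among the called genes and are also markers of the cell filter that follows. That filter was added here after the data were seen, so the loss of those calls under it is no independent check. Without cells holding at least 10 UMIs of other-type markers the edgeR count was 0 of 11939, with 385 at an unadjusted p under 0.05, and DESeq2 run on all cells called 7.

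The last comparison asked whether a guide target changed the chance of a cell being high. With guides as the units, 34 nontargeting guides had a mean of 9.21% high cells (SD 3.19, lowest 3.12%, highest 18.8%), from 254 high cells of 2730. The 79 targets with enough cells ranged from 4.0% to 15.5%, with a median of 9.96%. By a two-sided exact permutation test over guides 0 of 79 targets (0.0%) passed after adjustment, 8 (10.1%) had an unadjusted p under 0.05, and the smallest adjusted p was 0.234. The highest share was that of Hpse, the heparan sulfate-cleaving enzyme heparanase, at 15.5% (39 of 253 cells, exact p = 0.00347). Its 3 guides were at 12.6%, 16.8% and 16.9%. Its libraries were at 15.8%, 5.88%, 12.7% and, in IgG, 17.8% of 19, 17, 71 and 146 cells. Slc25a11, the mitochondrial oxoglutarate carrier, followed at 15.1% (exact p = 0.00592). Its libraries were at 3.7%, 5.0%, 12.7% and, in IgG, 19.4% of 27, 20, 110 and 155 cells. Slc1a6, a glutamate transporter, was at 14.5% (exact p = 0.0148), with libraries at 11.6%, 13.0%, 17.3% and 10.4% of 43, 54, 98 and 115 cells. The lowest shares were those of Pigp, an enzyme of GPI anchor synthesis, at 4.0%, Dhodh, the mitochondrial enzyme of pyrimidine synthesis, at 4.90%, and Azin2, an antizyme inhibitor, at 5.61% from 231 cells. These are means over guides, and for Pigp and Dhodh they rest on few cells. Pigp had 3 high cells of 56, with guides at 3 of 25, 0 of 17 and 0 of 14. Dhodh had 5 of 57, with guides at 5 of 34, 0 of 13 and 0 of 10.

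**Figure D5:**
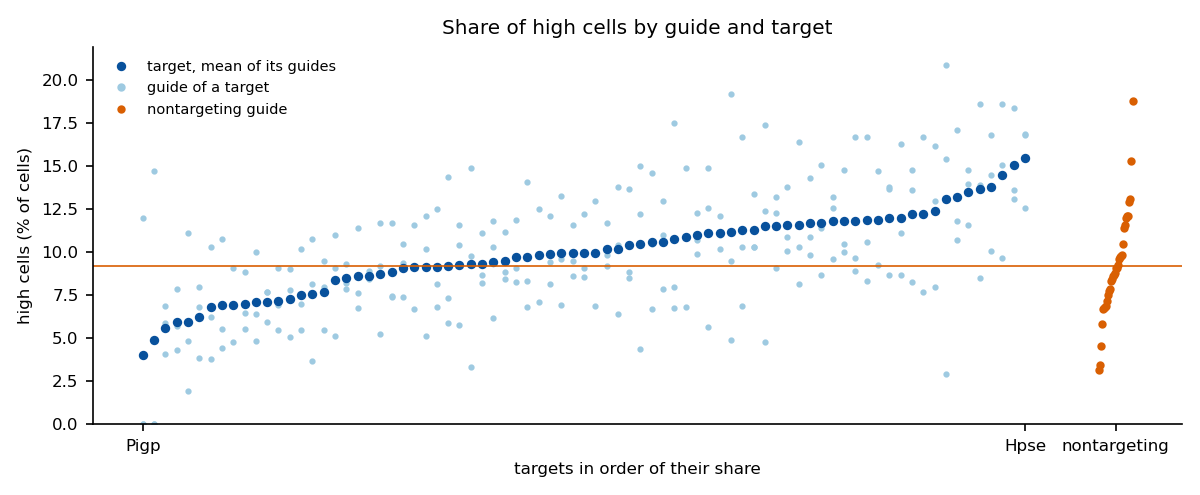
Share of high cells (y axis, % of cells) for each guide and for the mean of each target's guides, with targets in order of their share on the x axis and the 34 nontargeting guides at the right, whose mean of 9.21% is the horizontal line. Target means run from 4.0% for Pigp to 15.5% for Hpse.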

How the data were processed

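Gene expression was profiled by droplet single-cell RNA sequencing (10x 3' chemistry) of sorted OT-I cells in 4 libraries, with guides read from a matched guide library. The authors aligned reads to mm10 with Cell Ranger 3.1.0, and what they deposited are unnormalised UMI counts for each gene and barcode, with the called guides in a table. The submitters' notes also name R 3.6.3 and Seurat. Barcodes with 1 guide and at most 10% mitochondrially encoded UMIs were kept, no upper limit on UMIs was set and no doublets were removed. Columns of samples outside the study numbered 0.

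Counts were summed per library over high and over other cells and tested in edgeR 4.0.16 (R 4.3.3) by quasi-likelihood with filterByExpr, TMM scaling, library as a block, and Benjamini-Hochberg adjustment over all genes. The state by treatment term was tested in the same way. Levels are CPM, a gene's UMIs per 1000000 gene UMIs summed over the same cells. Shares by target used guides with at least 10 cells and targets with at least 2 such guides, with all reassignments enumerated. The fits were tested on simulated counts. Promoters and starts are from RefSeq (GRCm38.p6).

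The high cells and the 37 gene lists were chosen with earlier results of these data known. Named genes are the 5 rule genes, list genes with the largest changes, the 10 largest rises and falls outside the lists (at least 50 CPM, same direction in 4 of 4 libraries), and the 3 highest and lowest targets. Alternatives covered DESeq2 1.42.0, filter, scaling, block, top 5% and 20%, bins of depth, thinning, a limit on UMIs of 3 median absolute deviations (MAD), nontargeting guides only, barcodes without a guide, cells with other markers, guides with at least 20 cells and each library left out. Intervals and p-values cover spread between libraries or guides, and a library with median cells of 6298 UMIs (IgG) gives coarser scores than one with 16744. A few list genes are counted but not reported by name here.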

Additional observations from a re-analysis of the deposited data

Results flagged for a closer look

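The contrast of high with other cells differed between anti-PD-1 and IgG at an adjusted p under 0.05 (edgeR state by treatment term) for 22 genes, given here as the log2 change under anti-PD-1 minus that under IgG. It was smaller under anti-PD-1 for the keratins Krt8 (-7.14), Krt18 (-6.14) and Krt19 (-7.23) and for Lgals4 (-5.75), Clu (-4.37), Tm4sf1 (-4.72), Anxa3 (-3.54), Rflnb (-3.09), Cystm1 (-2.96), Igha (-2.49), 2200002D01Rik (-2.37) and Lmna (-2.15). Smaller differences were those of Cdkn2a (-1.41), Epcam (-1.30), Mgst3 (-1.19), Csrp2 (-1.07), Pdlim1 (-0.90), Ccl1 (-0.84), Ifng (-0.57) and S100a6 (-0.55). It was larger for Gzmg (5.05) and Il2 (3.08). IgG was a lone library, which the fit took to vary like the anti-PD-1 ones, so library and treatment cannot be told apart.

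Single cells held most of several of these counts but not of others. The IgG high cell with most UMIs held 6.66% of those of Ifng, 6.39% for Ccl1 and 12.8% for S100a6. The 4 Il2 UMIs of IgG high cells lay in 4 cells. In IgG, 1 high cell held 490 of 494 Krt8, 539 of 545 Krt19, 448 of 460 Lgals4 and 414 of 414 Clu UMIs, and 42 of 44 Anxa3 UMIs were likewise in 1 cell. In anti-PD-1 replicate 3, 1 of 8 high cells with Gzmg held 1620 of 2771 UMIs. Krt8, Krt18, Krt19 and Epcam are themselves among the other-cell-type markers, so the loss of their calls in the next setting is no independent check. With cells of at least 10 other-marker UMIs left out, an alternative added after seeing the data, 0 of 11939 genes were called.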

How the results depend on the processing

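Treatments could not be compared in pairs, since IgG had a lone library and the labels give no pairing of libraries across treatments. This concerns the comparison of treatments alone, since high and other cells were compared within each library, with the library as a block. In place of the 4464 genes called in high cells, fits with a library left out called 3461 (without anti-PD-1 replicate 3) to 4159 (without replicate 2), of which 3331 and 3893 repeated a call of the full fit in its direction. The count fell to 1371 without the library block (765 higher, 606 lower), to 2758 with cells chosen after thinning (1431 and 1327), to 1108 with nontargeting guides only (650 and 458, fewer cells) and to 2753 with replicates 1 and 2 only (1365 and 1388, fewer libraries, chosen after seeing the data). DESeq2 called 3470. Replicates 1 and 2 summed to 1 library gave 4542 calls and replicate 3 with IgG 3969, both also added later. All 5 genes held out in turn stayed higher under every alternative run for them.

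The count of treatment differences, 22, was 7 in DESeq2, 55 without the filter, 12 to 71 with an anti-PD-1 library left out (71 without replicate 3) and 0 without cells of other markers. In that last setting, with adjusted p = 1, the sign turned for 2200002D01Rik (0.06), Clu (5.97), Csrp2 (0.55), Igha (0.14), Lgals4 (0.22), Pdlim1 (0.06) and Rflnb (0.05).

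Log2 changes that turned sign were those of Gzmg (-0.17 without replicate 3, up to 3.81 without IgG, -1.72 with nontargeting guides), Gzmd (-0.70) and Cd74 (0.46) with nontargeting guides, and Pdcd1 (-0.01 by library size, -0.04 in the top 5%, -0.01 in replicates 1 and 2 only). Ifng turned to -0.06 without IgG (up to 0.21 with another library left out) and to -0.15 in replicates 1 and 2 only. Krt8 turned to -0.90 without IgG (up to 4.18 with another left out), -0.81 under the 3 MAD limit, -0.20 without cells of other markers and -1.09 in replicates 1 and 2 only, and Krt19 to -1.22 without IgG (up to 4.4), -1.09 under the 3 MAD limit and -1.96 in replicates 1 and 2 only. Except where a clause above names fewer cells or libraries, the cause was not tested. Of the other values for named genes, 2039 kept their direction and side of the threshold, 93 lost their call and 21 gained one.

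No target passed under any alternative, with the smallest adjusted p between 0.0508 (top 20%) and 0.269. The anti-PD-1 minus IgG difference in the 5 genes ran from -80.1 to -17.8 CPM with a library left out, and was -60.1 in barcodes without a guide. Depth limits single-cell scores most in IgG, where a median high cell held 5 UMIs of the 5 genes.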

Other observations

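A further group of genes, singled out after their values were seen and below the level set for naming, had large differences outside the lists. Sdc4, the cell-surface proteoglycan syndecan-4, was at 6.39, 7.73, 16.4 and 14.2 CPM in high cells, and at 0.182, 0.437, 1.02 and 0.823 in other cells. Its log2 fold change was 4.26 (SE 0.19, edgeR adjusted p = 2.52e-11), and the kinds of cell did not overlap. Mgarp, a mitochondrial protein, was at 34.0, 26.7, 51.1 and 39.8 CPM against 3.49, 2.97, 6.97 and 7.73, a log2 fold change of 2.91. Plcxd1, a phospholipase-like protein, changed by 2.89 (17.0 against 2.46 CPM), and Neil2, a DNA glycosylase of base excision repair, by 2.51 (31.1 against 5.80 CPM). All 4 were higher in 4 of 4 libraries.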
